A study of Drosophila melanogaster with 3 samples.

Results

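The 8 Drosophila melanogaster Hox genes were examined for binding of the protein CG17359: lab, pb, Dfd, Scr and Antp of the Antennapedia complex, and Ubx, abd-A and Abd-B of the bithorax complex. The genes were taken by name, with 20 kb either side of each and the whole interval from Ubx to Abd-B, out of 18164 annotated genes of which 13945 code for proteins. Overlapping stretches were joined, which left 4 stretches of chromosome arm 3R with 717.4 kb in all, or 0.536% of the 133.9 Mb of the 6 arms. They held 25 of the 7287 peak summits in the authors' thresholded list.

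The chromatin came from 3 biological replicates of whole embryos aged 0 to 14 h, from a transgenic line that stably expresses CG17359 with GFP fused to its C-terminus. Binding was read by anti-GFP chromatin immunoprecipitation and sequencing (ChIP-seq), so what was measured is the tagged protein. CG17359 is annotated as an uncharacterized protein in the reference used here, and whether the line also carries the untagged gene is not stated in the labels. All samples form 1 group, each compared by the authors with the same control; no untagged strain, other age or dissected tissue was analysed here, and a peak from whole embryos does not say in which cells the protein was bound. The labels do not say how the biological replicates were separated, so their spread may be partly technical.

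Hox genes encode homeodomain transcription factors that give the segments of the body their identity, and within each complex they lie along the chromosome in the order of the segments they act in. Those of the bithorax complex are switched on segment by segment by long regulatory domains in and between the genes, which are kept apart by boundary elements and held silent elsewhere by Polycomb proteins. The insulator proteins CTCF and Su(Hw), the GAGA factor (GAF) and the Polycomb recruiter Pho are known to act at such elements. The named boundary elements of the bithorax complex are not annotated in the gene models used here, so no summit is assigned to one.

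Summits were numbered 1 to 25 along 3R. The signal value printed for each is the authors' own, in a unit they do not state, and is used to place peaks within their own list, never to compare lists. The sequences that the description turns on reach 100 bp either side of the summit, on the plus strand of the Release 6 genome. The 5 with the highest signal are shown, with the one at a Hox gene start and another outside genes between Ubx and abd-A; sites 20 and 22 were added after the search because they hold the CTCF core. Capitals mark matches to the elements searched, and a window without capitals holds none.
Site 5, Antp intron, chr3R:6903317-6903517: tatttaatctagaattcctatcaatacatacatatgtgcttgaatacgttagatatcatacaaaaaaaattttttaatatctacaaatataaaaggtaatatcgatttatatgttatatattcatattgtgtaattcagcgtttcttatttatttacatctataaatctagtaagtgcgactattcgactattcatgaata
Site 6, Antp intron, chr3R:6912478-6912678: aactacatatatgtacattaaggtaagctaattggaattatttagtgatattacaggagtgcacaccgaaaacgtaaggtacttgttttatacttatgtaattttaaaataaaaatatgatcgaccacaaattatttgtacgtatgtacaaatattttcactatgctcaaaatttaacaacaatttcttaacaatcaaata
Site 10, Antp intron, chr3R:6936233-6936433: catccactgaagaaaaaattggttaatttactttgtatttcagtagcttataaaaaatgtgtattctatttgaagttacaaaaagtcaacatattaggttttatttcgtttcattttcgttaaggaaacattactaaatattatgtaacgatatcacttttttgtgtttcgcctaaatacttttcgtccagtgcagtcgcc
Site 16, between Ubx and abd-A, chr3R:16794286-16794486: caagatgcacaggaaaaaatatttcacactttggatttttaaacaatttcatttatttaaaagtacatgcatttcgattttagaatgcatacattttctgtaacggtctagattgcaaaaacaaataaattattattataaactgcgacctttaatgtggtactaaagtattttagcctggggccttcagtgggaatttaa
Site 17, between Ubx and abd-A, chr3R:16798786-16798986: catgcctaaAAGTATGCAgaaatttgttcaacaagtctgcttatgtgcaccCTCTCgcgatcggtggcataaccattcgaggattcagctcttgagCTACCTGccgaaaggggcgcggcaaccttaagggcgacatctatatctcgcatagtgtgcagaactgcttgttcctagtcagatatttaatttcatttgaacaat
Site 19, abd-A start, chr3R:16829844-16830044: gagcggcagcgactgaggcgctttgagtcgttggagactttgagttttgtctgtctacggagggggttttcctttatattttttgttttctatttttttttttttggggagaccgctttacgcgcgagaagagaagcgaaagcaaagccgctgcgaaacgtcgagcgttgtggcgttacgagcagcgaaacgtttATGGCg
Site 20, upstream of abd-A, chr3R:16834742-16834942: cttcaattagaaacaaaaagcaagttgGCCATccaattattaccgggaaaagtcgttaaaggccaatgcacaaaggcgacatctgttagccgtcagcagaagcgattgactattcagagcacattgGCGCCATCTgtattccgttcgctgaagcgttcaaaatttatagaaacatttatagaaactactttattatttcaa
Site 22, between abd-A and Abd-B, chr3R:16869301-16869501: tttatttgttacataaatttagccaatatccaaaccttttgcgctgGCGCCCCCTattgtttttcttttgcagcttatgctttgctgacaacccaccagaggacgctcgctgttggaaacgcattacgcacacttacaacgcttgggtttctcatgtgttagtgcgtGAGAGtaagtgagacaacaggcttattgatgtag
Site 24, CG18622 start, chr3R:16986562-16986762: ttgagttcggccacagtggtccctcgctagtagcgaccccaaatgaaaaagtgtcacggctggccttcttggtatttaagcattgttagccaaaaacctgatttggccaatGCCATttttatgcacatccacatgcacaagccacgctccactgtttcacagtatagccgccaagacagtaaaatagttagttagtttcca

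The Hox stretches held fewer thresholded summits than their length at the arm average. Their 25 summits made 3.48 per 100 kb against 5.44 on the arms, a ratio of 0.640, where the arm average would place 39.0 summits. The 25 were 0.343% of the list (exact 95% binomial interval 0.222 to 0.506%, for counting only), and the stretches were 0.536% of the bases. Taking the 7287 strongest peaks of each replicate instead, replicate 1 had 23 summits there, replicate 2 had 28 and replicate 3 had 28. The corresponding density ratios were 0.589, 0.717 and 0.717, with a mean of 0.674 ± 0.0739 (SD, n = 3), so the value lay below 1 in all 3 lists. The pooled list, which the authors cut at 30000 peaks, had 99 summits in the stretches, and the full replicate lists had 103, 97 and 101.

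The thresholded count was lower in the Antennapedia stretches than in the bithorax stretch, though their windows were not laid out alike. The 3 stretches of the Antennapedia complex, 361.8 kb together, held 10 thresholded summits, a ratio of 0.508 to the arm average. The strongest peaks of the replicates gave 11, 11 and 12 there. The bithorax stretch, 355.6 kb, held 15 thresholded summits, a ratio of 0.775, and 12, 17 and 16 of the strongest peaks of replicates 1, 2 and 3. The lowest replicate count in the bithorax stretch was therefore no lower than the highest in the Antennapedia complex. The bithorax interval was taken whole, whereas the gap between the pb and Dfd flanks was left out. That gap held thresholded summits at 6763024 and 6765076. From Ubx to Abd-B without flanks, the thresholded ratio was 0.699. With counts this small, the difference between the complexes is a description. Within the Antennapedia complex the Antp stretch had a ratio of 0.771, the stretch of lab and pb 0.457 and that of Dfd and Scr 0.187. The strongest peaks of replicates 1, 2 and 3 gave 0.771, 0.643 and 0.900 for Antp and 0.609, 0.761 and 0.609 for lab and pb, so the order of these stretches reversed in replicate 2. For Dfd and Scr all 3 gave 0.187, from 1 summit each.

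**Figure D1:**
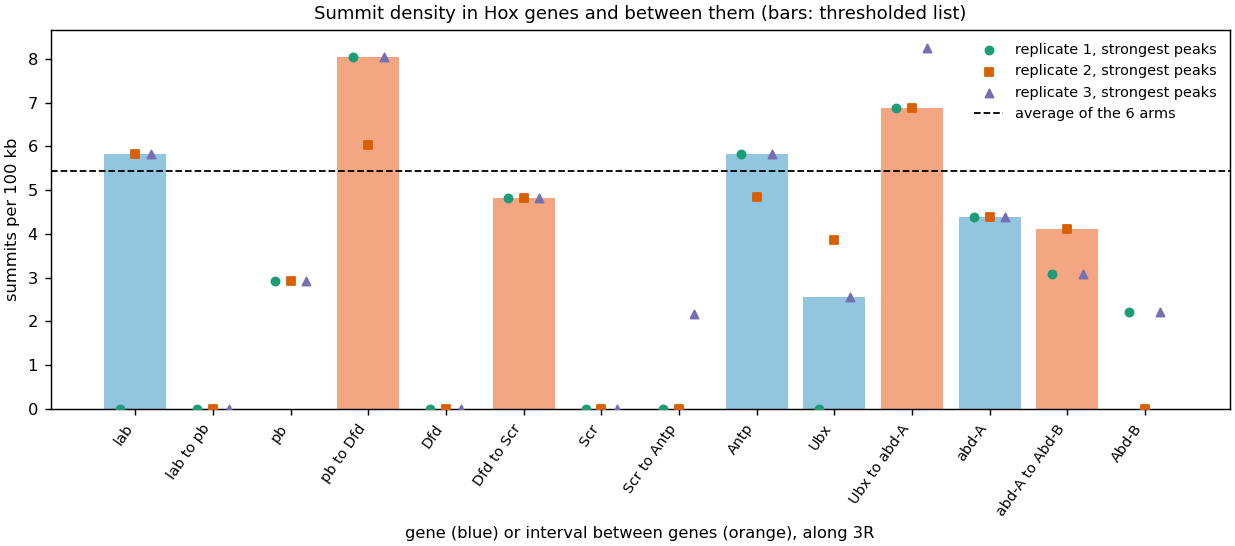
Summits per 100 kb (vertical axis) in each Hox gene and in each interval between neighbouring Hox genes, in order along 3R (horizontal axis). Bars are the thresholded list, points are the 7287 strongest peaks of each replicate and the dashed line is the arm average of 5.44; pb, Dfd, Scr and Abd-B have no bar because they held no thresholded summit, and the interval from Ubx to abd-A stood at 6.87.

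Summits at a gene's own start were counted for the Hox genes and set beside the share of protein-coding genes. Of the 8, abd-A alone had a thresholded summit within 500 bp of an annotated start site, where 23.9% of protein-coding genes had one. Among the 1865 protein-coding genes at least as long as the shortest Hox gene, Dfd with 10.6 kb, the share was 37.0%. In the pooled list 2 of the 8 had a summit at a start, abd-A and lab, against 46.8% of protein-coding genes. Each replicate's strongest peaks gave 1 of 8, and the full replicate lists gave 2, 1 and 2. With 8 genes, a count of 1 or 2 is too small to set apart from these shares.

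Counted with its surroundings, each Hox gene had a thresholded summit, as most protein-coding genes did. All 8 had a thresholded summit from 20 kb before to 20 kb after the gene, against 83.9% of protein-coding genes and 87.6% of the long ones. With 8 genes, this count cannot be set apart from those shares. Dfd and Scr were both counted through site 4, and pb through sites 2 and 3, which lay nearest to the start of bcd. The median number of such summits was 2.5 per Hox gene and 4 per long gene. Between their own ends, 4 of the 8 had a thresholded summit, namely lab, Antp, Ubx and abd-A, against 56.2% of the long genes.

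lab, which acts in the head, held 1 thresholded summit and 5 pooled summits. Site 1, at 6665510 in an intron, lay 2056 bp upstream of the internal lab start at 6663454 and 13.1 kb inside the gene from its distal start. Its signal was 237.5 in the pooled reads, rank 6434 of 7287, and 56.2, 92.6 and 100.8 in replicates 1, 2 and 3. It was thus a peak near the lower end of the list that each replicate nevertheless called. The pooled summit that counts as a lab promoter peak lay 321 bp downstream of the internal start, with a signal of 84.3, outside the thresholded set.

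pb, which acts in the mouthparts, had no thresholded or pooled summit in its 34.3 kb. Each replicate list nevertheless held a peak in the same pb intron, with summits at 6723976, 6724005 and 6723959 and signals of 91.7, 71.3 and 150.3. All 3 ranked among the strongest 7287 of their list, and the nearest pooled summit lay 35692 bp from that of replicate 1. A peak called in each replicate was therefore missing from the pooled list here; the cause was not tested. Between lab and pb, 29.2 kb that hold the Ccp84A cuticle protein genes, no summit lay in any of the 5 lists, and none of the 7 Ccp84A genes had a promoter summit.

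The nearest thresholded summits to pb lay beside other homeobox genes. Site 2, at 6759668, was 202 bp upstream of the start of bcd, which encodes the maternal anterior determinant Bicoid, and 17605 bp from pb. Its signal was 636.4 in the pooled reads and 194.0, 210.6 and 234.7 in the replicates, which placed it 5th among the 23 Hox sites that all replicates held. Site 3, at 6760928 between genes and 1462 bp upstream of bcd, had 283.5, with 96.6, 60.5 and 119.1 in the replicates. The interval from pb to Dfd held 4 thresholded summits in 49.8 kb, 8.04 per 100 kb or 1.48 times the arm average. Of these, 2 fell in the gap between the 20 kb flanks. The strongest peaks of replicates 1, 2 and 3 gave ratios of 1.48, 1.11 and 1.48. With weaker peaks counted, the interval lay below the arm average. The ratio was 0.538 in the pooled list and 0.807, 0.897 and 0.538 in the full replicate lists. zen and zen2, homeobox genes of the same interval, had no summit at their starts.

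Dfd, which acts in the maxillary and mandibular head segments, had no summit between its ends in any of the 5 lists. The thresholded summit nearest to its start lay 26760 bp upstream, at 6765076, with a signal of 298.3; site 4, beyond its 3′ end, was nearer to the gene. Scr, which acts in the labial and first thoracic segments, had none in the thresholded list either, and 1 pooled summit with a signal of 55.4. The only thresholded summit of their joint stretch was site 4, at 6818778, between the genes and 1116 bp upstream of the tRNA gene tRNA:Lys-TTT-2-1. Its signal was 549.7 in the pooled reads and 159.9, 152.1 and 247.8 in the replicates. All replicates thus ranked it among their strongest peaks.

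Site 4 lay near the end of a group of weak peaks. The 20.7 kb between Dfd and Scr held 13 pooled summits, site 4 and 12 below the threshold. They were spread over 9.54 kb, from 238 bp upstream of mir-10, a conserved Hox-complex microRNA gene, across lncRNA:CR42651 and on towards Scr. Their number per base was 2.80 times the pooled density of the arms. The full replicate lists gave 14, 15 and 9 summits in the interval, or 3.02, 3.24 and 1.94 times the arm average. The 12 weak summits included 8 that overlapped a peak in each replicate. The thresholded list alone shows 1 summit in this interval, a ratio of 0.888.

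Antp, which acts in the thorax, is the longest of the 8 genes at 103.0 kb and held 6 thresholded summits, more than any other Hox gene. Sites 5 to 10 were all in introns, and 5 of the 6 lay within 16.7 kb of each other in its 3′ part. Site 10, at 6936333, lay 3493 bp upstream of the internal Antp start at 6932840, and had a signal of 800.0, with 219.3, 272.8 and 309.0 in the replicates. Site 6, at 6912578, had 710.8, with 239.6, 162.9 and 297.6. These were among the stronger peaks of every replicate, and their windows printed above have GC contents of 28.9% and 25.4%.

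The other Antp sites ranked less evenly between replicates. Site 5, at 6903417, had a signal of 686.6 in the pooled reads and 240.9, 135.5 and 310.5 in the replicates, in a window with a GC content of 22.4%, the lowest of the 25. Site 9, at 6920160, had 634.7, with 117.9, 252.4 and 256.2. Site 8, at 6914537, had 542.7, with 115.0, 223.1 and 201.9. By percentile within its own list, replicate 1 was the lowest at sites 8 and 9 and replicate 2 at sites 5 and 6, so no replicate was low throughout the gene. Site 7, at 6912778, stood 200 bp from site 6, had 430.0, and fell outside the strongest peaks of replicate 2, where its signal was 55.6. The gene's distal start at 6999228 had no thresholded summit within 62895 bp, and Scr to Antp, 46.3 kb with the pair-rule gene ftz, had none in the thresholded or pooled list.

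**Figure D2:**
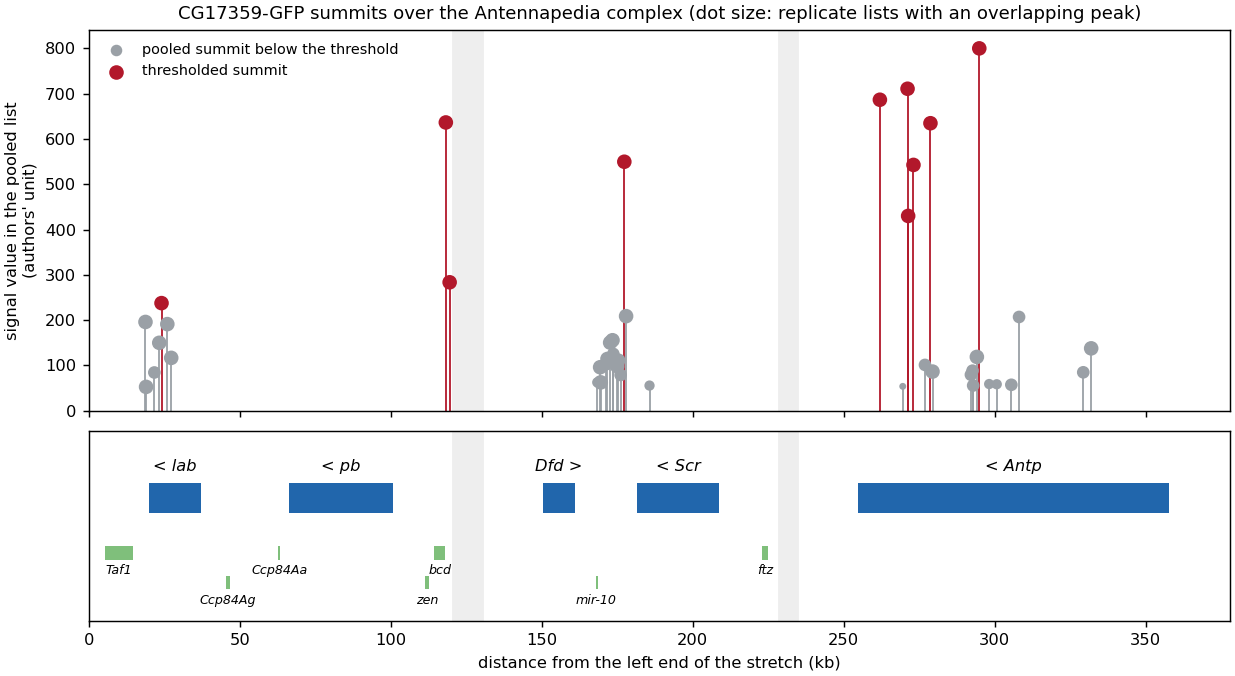
Signal value of each summit (vertical axis, authors' unit) against distance in kb from the left end of the lab stretch (horizontal axis), with thresholded summits in red, weaker pooled summits in grey, dot size for the number of replicate lists with an overlapping peak, and genes below with arrowheads for their direction. Grey bands lie outside the 20 kb flanks, where summits are not drawn; the 6 thresholded Antp summits, the run of weak summits beside mir-10 and the empty pb and ftz regions can be seen.

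Ubx, which acts in the posterior thorax and first abdominal segment, held 2 thresholded summits in 77.8 kb. Site 12, at 16704462, had a signal of 290.0, with 58.1, 112.9 and 124.2 in the replicates, and site 13, at 16718173, had 324.0, with 64.6, 124.3 and 130.5. Both were intronic and ranked lowest in replicate 1, outside its strongest peaks. The Ubx start had no thresholded summit within 16253 bp and no pooled summit within 14522 bp. Site 11, at 16647158, lay 9465 bp beyond the 3′ end of Ubx, between the starts of CG10324 and CCT3, which encodes a chaperonin subunit, and had 588.7, with 174.5, 176.6 and 233.8.

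In the thresholded list, the interval between Ubx and abd-A was the densest of the bithorax genes and the intervals between them. Its 72.8 kb held 5 thresholded summits, 6.87 per 100 kb or 1.26 times the arm average. The strongest peaks of the replicates gave 5, 5 and 6. With weaker peaks counted, the interval lay below the arm average. The ratio was 0.858 in the pooled list and 0.797, 0.674 and 0.858 in the full lists of replicates 1, 2 and 3. Sites 14 and 15 lay in an intron of lncRNA:bxd, a long noncoding RNA gene of the bxd regulatory domain that acts on Ubx. Site 14, at 16769605, had a signal of 651.3, with 142.6, 241.5 and 249.1 in the replicates, and site 15, at 16771759, had 353.0, with 127.2, 102.0 and 119.7. Site 16, at 16794386, was intergenic and 6075 bp downstream of the start of the glucose transporter gene Glut3, with 462.9 in the pooled reads and 120.2, 104.8 and 245.9 in the replicates. Its value in replicate 3 was thus about as high as that of site 14, and its values in replicates 1 and 2 were lower.

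The strongest Hox site was in the same interval. Site 17, a peak at chr3R:16798719-16799037 with its summit at 16798886, was intergenic, 8328 bp past the 3′ end of abd-A and 1714 bp upstream of lncRNA:CR45750. Its signal was 1361 in the pooled reads, rank 520 of 7287, and 332.0, 495.5 and 505.9 in the replicates, ranks 675, 334 and 706 of 30000. It was the highest of the Hox sites in every replicate. Its mean percentile in the replicate lists was 98.1 ± 0.69 (SD, n = 3), and its signal exceeded that of site 10, the next, by 0.72 ± 0.13 on the log2 scale (mean ± SD of the within-replicate differences, n = 3). Site 18, 2250 bp away at the start of lncRNA:TS16, was the least even of the 23 sites with a peak in all replicates, with 216.5 in the pooled reads and 60.0, 31.1 and 129.8 in the replicates.

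abd-A, which acts in the abdomen, was the Hox gene with summits closest to its start. Site 19, at 16829944, lay 105 bp downstream of the start at 16830049, and had a signal of 521.2 in the pooled reads and 153.8, 191.9 and 194.8 in the replicates. The overlapping replicate summits spread over 115 bp, the widest of the 23 sites with 3 replicate summits. With 20 kb either side, abd-A held 6 thresholded summits in 62.8 kb, 9.55 per 100 kb or 1.75 times the arm average, and 5, 5 and 6 of the strongest replicate peaks, a mean ratio of 1.56 ± 0.169 (SD, n = 3). The strongest peaks of every replicate therefore placed the abd-A region with its flanks above the arm average, on counts of 5 or 6. Between its own ends, abd-A held 1 summit, a ratio of 0.805, in the thresholded list and in each replicate's strongest peaks. The flank past its 3′ end is part of the interval from Ubx to abd-A described above. With the flanks, the full replicate lists gave ratios of 1.07, 0.994 and 1.28. Replicate 2 thus fell below the arm average when its weaker peaks were counted.

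The interval from abd-A to Abd-B, 97.2 kb with the iab regulatory domains, held 4 thresholded summits, 0.756 times the arm average, and 3, 4 and 3 of the strongest replicate peaks. All were in introns of lncRNA:iab8, the noncoding RNA gene that runs through the interval and is the host of mir-iab-8. Site 20, at 16834842, lay 4793 bp upstream of abd-A and had a signal of 405.9, with 104.6, 160.2 and 148.0 in the replicates. Site 21, at 16838002 and 7953 bp upstream, had 636.6, with 168.8, 182.5 and 286.4. Site 22, at 16869401 and 39352 bp from abd-A, had 376.5, with 99.96, 129.2 and 172.6. The strength thus did not follow the distance from abd-A. Site 23, at 16907944, was a peak of 113 bp near the bottom of the list, with 217.0 and rank 7075, and replicate 2 alone had an overlapping peak, with 47.3.

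Abd-B, which acts in the most posterior abdominal segments, had no thresholded or pooled summit in its 45.0 kb. Replicates 1 and 3 each had a strong peak in it that replicate 2 and the pooled list did not hold, with summits at 16958210 and 16958301 and signals of 234.4 and 359.4, ranks 1238 and 1266. These lay 2071 and 1980 bp downstream of the Abd-B start at 16960281. As in pb, the replicate lists thus held a peak that the pooled list did not. Among the strongest replicate peaks in the Hox stretches, 3 of 23, 2 of 28 and 3 of 28 had no pooled peak. The shares of those peaks on all arms were 2.73%, 3.31% and 1.96%. The Hox counts repeat the same places, such as the pb peak in every replicate and the Abd-B peak in replicates 1 and 3. They are small and not independent, so they are descriptions.

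Beyond Abd-B the summits lay at other genes. Site 24, at 16986662 and 14426 bp from Abd-B, was 188 bp downstream of the start of CG18622, annotated as an uncharacterized protein, and had a signal of 835.9, the second highest of the 25. Its replicate values were 211.4, 341.2 and 273.7. Site 25, at 16992082, lay at the starts of lncRNA:CR45221 and EMC2B, with 237.6 in the pooled reads, 122.8 in replicate 2, 119.4 in replicate 3 and no overlapping peak in replicate 1. It was also the site nearest to an end of a stretch, 154 bp inside it. The nearest summits outside were at 6763024, 961 bp beyond the pb flank with a signal of 782.9, and at 16996135, 3899 bp beyond the Abd-B flank with 228.9.

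**Figure D3:**
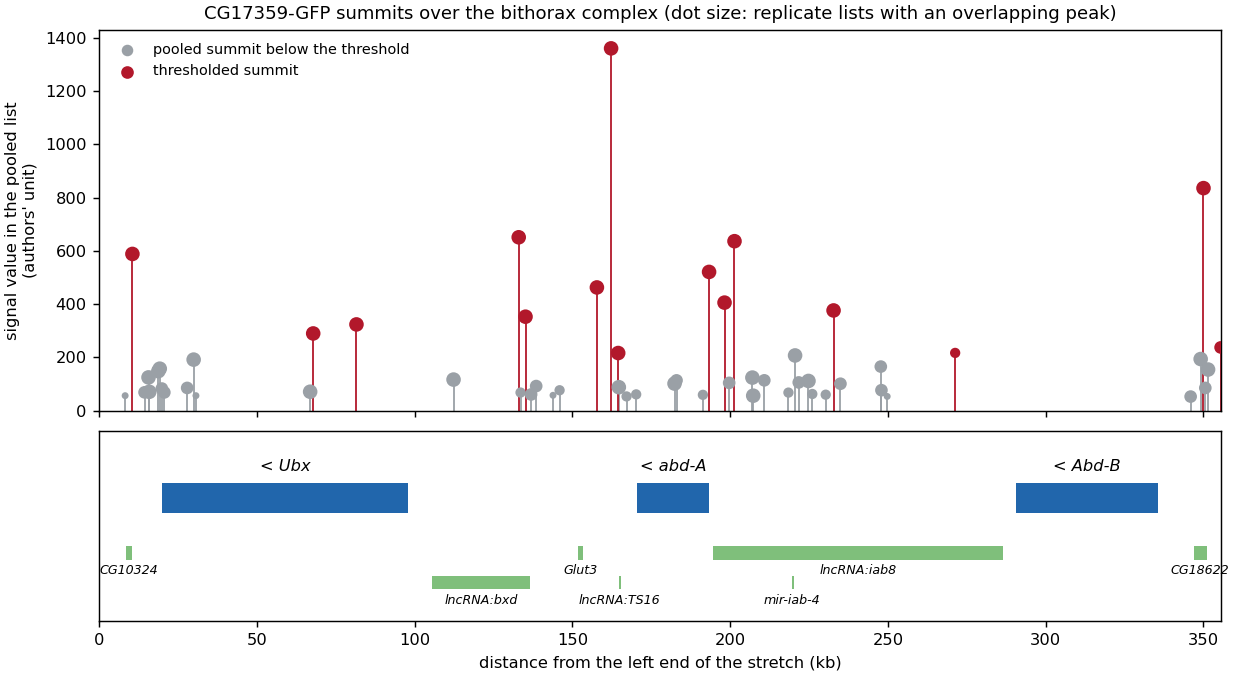
Signal value of each summit in the bithorax stretch (vertical axis, authors' unit) against distance in kb from its left end (horizontal axis), with thresholded summits in red, weaker pooled summits in grey, dot size for the number of replicate lists with an overlapping peak, and genes below with arrowheads for their direction. Site 17, at 1361, stands above the rest between Ubx and abd-A, and no summit is drawn within Abd-B.

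Long empty stretches accompanied these groups. The median distance between neighbouring thresholded summits was 14.9 kb for the 28 gaps that touch the Hox stretches and 5.74 kb for the 7281 gaps of the arms, where 40.2 kb was the 90th percentile. The gap that held pb was 94.2 kb, the one that held Scr 84.6 kb, the one that held Abd-B 78.7 kb and the one that held Dfd 53.7 kb. The longest, 160.9 kb, ran up to site 1 in lab, and the next, 130.9 kb, ran on from site 10 in Antp. Of the first, 136811 bp lay outside the lab flank, and of the second, 48054 bp lay beyond the Antp flank. Gaps that cross an end of a stretch were counted whole in the median. A long gap is more likely to cross an end, which can raise that median. The gap around Dfd held 12 pooled summits below the threshold and that around Abd-B held 2, so the gaps differed in how many weak peaks they held.

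The thresholded list was made from these same replicates, so overlap with their lists is not independent support for a site. An overlapping peak was found in all 3 replicates for 23 of 25 sites, 92% (exact 95% interval 74.0 to 99.0%), against 97.8% of the 7287. The exceptions were sites 23 and 25. With only the strongest peaks of each replicate, 17 sites had a peak in all 3, 6 in 2, 1 in 1 and 1 in none. No share of the whole list is set beside these counts, so they do not show whether such support was usual. Replicate summits lay a median of 8 bp and at most 126 bp from the pooled one. Of the 74 pooled Hox summits below the threshold, with signals of 52.5 to 208.7, 31 were in all replicates, 41.9%, against 47.2% of the pooled summits below the threshold on all arms.

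Ordered by their mean percentile in the replicate lists, the 23 sites ran from site 17 at 98.1 to site 18 at 64.9 ± 23.7 (SD, n = 3). Only site 17 exceeded its next neighbour beyond the spread of the within-replicate differences. The other 21 neighbouring pairs did not differ beyond that spread. Neighbours in a sorted order lie close by construction, so this does not show whether sites further apart differ. Site 10, at place 2, had a mean percentile of 95.5 ± 0.91 and site 1, at place 22, had 77.3 ± 6.09 (SD, n = 3). In the pooled reads the median signal of the 25 sites was 521.2 (range 216.5 to 1361), against 388.7 for the whole list, which reached 8514. The median Hox site stood at percentile 65.9 of the list, with 16 of 25 at or above its middle, 5 in its top 25% and 1 in its top 10%. In the replicate lists the median percentile of the Hox sites was 89.6, 91.3 and 91.1, against 87.7, 87.7 and 87.8 for all thresholded sites. The Hox sites were thus few per base and of ordinary to moderately high signal.

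**Figure D4:**
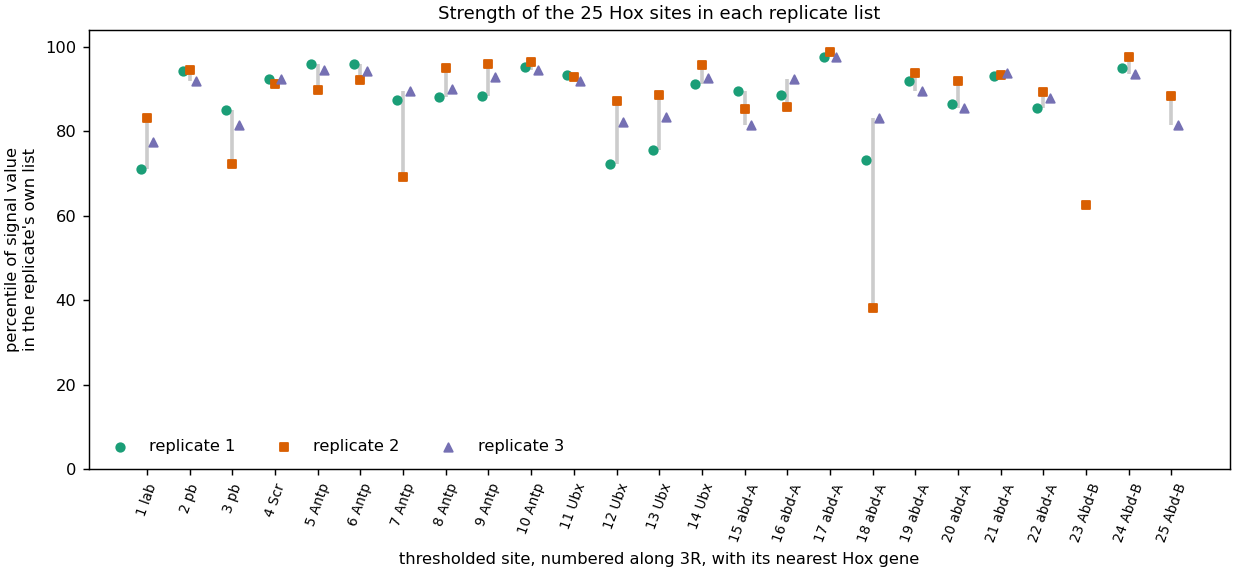
Percentile of the signal value within each replicate's own list (vertical axis) for the 25 Hox sites, numbered along 3R with their nearest Hox gene (horizontal axis). Points are replicates and grey lines join the lowest and highest; site 17 is highest at a mean of 98.1, site 18 spreads most among those with 3 points, and sites 23 and 25 lack a point for replicates with no overlapping peak.

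By position, introns held the largest number of Hox sites. Of the 25, 15 were in introns, 60.0% against 40.6% of the whole list, 6 within 500 bp of a start site, 24.0% against 41.8%, and 4 between genes, 16.0% against 14.8%. The strongest peaks of the replicates gave 60.9%, 57.1% and 64.3% in introns and 21.7%, 28.6% and 21.4% at promoters for the Hox stretches. The share of the stretches' own bases in introns is not set beside these counts, so they do not show a preference for introns. Inside a Hox gene lay 10 of the 25. The peaks had a median width of 246 bp against 326 bp, and a median GC content of 34.8% within 100 bp of the summit against 34.3%.

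Elements were searched on both strands within 100 bp of each summit, and a match says only that the letters are there. The CTCF core, AGNNGGCGC, was in 2 of 25 Hox windows, 8% against 2.69% of all 7287. These were sites 20 and 22, with the match centred 30 and -50 bp from the summit. GAGAG, bound by GAF, was in 7 (28.0% against 21.3%), and GCCAT, the core bound by Pho, in 5 (20% against 25.4%). TGCATANTT, from the Su(Hw) motif, was in 2 (8% against 2.99%), at sites 14 and 17, and TGAGTG, bound by Zeste, was in 4 (16.0% against 9.22%). CAGGTAG, bound by the early embryonic factor Zelda, was in site 17 alone (4% against 0.782%), while TATCGATA of the DNA replication-related element (2.66% of all) and GGTCACACT of promoter Motif 1 (1.29% of all) were in none.

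In the printed windows, site 17 holds matches for Su(Hw), GAF and Zelda, centred -87, -47 and -1 bp from its summit. The letters GCCAT can lie within a CTCF core match, and at site 20 a Pho match does. The windows of sites 5, 6, 10 and 16 hold none of the 8 elements. Conversely, most CTCF core matches in the stretches were not at a summit. Of 60 there, 2 lay within 100 bp of a thresholded summit, 3.33% against 1.89% of 12622 on all arms, and 4 lay within 100 bp of a pooled summit, 6.67% against 5.82%. The 2 added by the pooled list were at 16782561, where the match was 9 bp from a summit in 1 replicate with a signal of 76.7, and at 16857204, 862 bp upstream of mir-iab-8, where it was 2 bp from a summit in all 3 with 207.4. With counts of 2 and 4, these shares are descriptions.

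The stretches also held genes that are not Hox genes. Of 91 annotated genes that overlap them, 10 had a thresholded summit within 500 bp of a start and 23 a pooled one. The 91 include 46 that do not code for proteins, with 3 and 10 such summits. No share of all annotated genes is set beside these counts, so they do not show whether they were usual. Of the 45 that code for proteins, 7 had a thresholded summit there and 13 a pooled one, where the shares of all protein-coding genes were 23.9% and 46.8%. Apart from abd-A, the protein-coding ones were bcd, Fas1, CG10324, CCT3, CG18622 and EMC2B, of which CG10324 and CCT3 share site 11. Of these 7 genes, abd-A was thus the only Hox gene. Genes were counted where they overlap a stretch, and 2 promoter summits lay outside. They were those of Fas1, at 16625325, and of the noncoding lncRNA:CR45593, at 6763024, and are not among the numbered sites.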

How the data were processed

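Peak lists of anti-GFP ChIP-seq from 3 replicates were used as deposited: 1 list per replicate, 1 from pooled reads and 1 thresholded by an irreproducible discovery rate procedure, on dm6. Per the labels, chromatin was sonicated. Aligner, caller and threshold were not given in the sources used here. For each peak the authors deposited a signal value, a −log10 q value (not used to filter) and a summit offset. The lists give no read counts, so library depth is unknown. Replicate and pooled lists stop at 30000 peaks. No value column of another sample was present (0).

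Summits were placed on Ensembl 115 gene models (BDGP6.54) and the Release 6 genome with Python 3.11.15, numpy 2.4.6, pandas 2.3.3 and scipy 1.17.1, by code tested on simulated peaks. Overlap was 1 bp or more. Promoter meant 500 bp either side of any annotated start. With 1 group there was no contrast and no test. Percentiles and the 7287 strongest peaks put replicates on 1 footing; no 2 replicates shared an identical peak (0). The genes, element lists and named genes (the Hox genes, genes inside the complexes, the nearest gene of each summit, up to 6 other homeobox genes) were chosen with earlier results of these data known. Alternatives varied flank, promoter width, merging, matching, list and replicates.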

Additional observations from a re-analysis of the deposited data

How the results depend on the processing

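Of 31 alternative values, 22 stayed within the spread of the replicates, the counting interval or 1.5 times the count. The median signal percentile, 65.9, was 59.8 with 40 kb either side. The number of Hox genes with a promoter summit, 1, was 2 in the pooled list. The share of sites in all replicates, 92%, was 68.0% when only the strongest peaks counted, with no share of the whole list beside it. In the stronger part of the thresholded list, its upper 50%, 16 summits remained, and the density ratio was 0.819. Taking instead the strongest peaks shared by a pair of replicates, so leaving each replicate out in turn, gave ratios of 0.640 to 0.738 and median percentiles of 57.3 to 59.1, with 20 to 23 summits and 1 promoter. The ratio stayed below 1 in these settings. The cause of the moves was not tested. No paired analysis was possible because the samples form 1 group. Results of the thresholded list rest on that 1 list, and the counting error of the signal values cannot be given because depth is unknown.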

Other observations

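Few other homeobox genes had a promoter summit. Of 73 such genes, a list that includes bcd, zen, zen2 and ftz of the Antennapedia complex, 7 had a thresholded summit within 500 bp of a start, 9.59% against 23.9% of protein-coding genes, and 55 had one within 20 kb, 75.3% against 83.9%. Of the 35 at least as long as Dfd, 3 had a promoter summit, 8.57% against 37.0% of long genes, and 26 had one within 20 kb, 74.3% against 87.6%. The strongest promoter peaks were those of tin, needed for heart formation, with a signal of 1299, and NK7.1 with 1149. They were followed by bcd with 636.4, ro, an eye patterning gene, with 403.1, eyg with 273.6 and cad, which acts in the posterior embryo, with 244.6. All of these had an overlapping peak in each replicate.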
